A study of Mus musculus with 4 samples.

Results

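The cells described here are tissue-resident T follicular helper (TR-TFH) cells that carry a constitutively active TGFβ receptor 1, set beside the same cluster in control mice. They were chosen by the authors' deposited cluster name TR-TFH, which holds 556 of 1098 cells labelled TGFβR-CA and 460 of 1007 cells labelled TGFβR-WT. These 1016 cells are part of 5080 cells in the series. All cells were sorted as YFP+CD4+ from small intestines of C57BL/6 mice aged 7 to 8 months, which carried *Il17a*-cre and a floxed stop cassette before *yfp* in Rosa26, so that YFP marks cells that have expressed *Il17a*. TGFβR-CA mice (RCA in the labels) also carried an active *Tgfbr1* behind a floxed stop cassette, and TGFβR-WT mice were littermates without floxed receptor alleles. Cre was thus driven by *Il17a* alone, and cells that never used that promoter were not sorted. There was 1 TGFβR-CA sample. The labels list 2 TGFβR-WT samples, but no column of the table ties a cell to either of them. Cell names of TGFβR-WT carry 1 of 2 suffixes, and these gave a larger set (327 TR-TFH cells) and a smaller one (133 TR-TFH cells), which no source used here ties to the samples or batches. The methods describe separate sequencing batches for TGFβR-CA and for TGFβR-KO cells, each run together with TGFβR-WT cells. The table gives no batch of a cell, so 1 of the sets may share the batch of TGFβR-CA and the other that of TGFβR-KO. With 1 TGFβR-CA sample, and TGFβR-WT cells that could not be assigned to their samples, no test between genotypes was made, and differences are given by size.

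TGFβ signals through a complex of TGFBR2 and TGFBR1, which phosphorylates SMAD2 and SMAD3. These join SMAD4, enter the nucleus and change transcription, and among their targets are genes such as *Smad7*, *Skil*, *Smurf2* and *Pmepa1* that restrain the pathway. T follicular helper cells are CD4+ T cells that help B cells through CD40 ligand, ICOS and IL-21 under the control of BCL6, and TGFβ is known in the gut for its part in TH17, regulatory and resident T cell programs.

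The deposited values are corrected unique molecular identifiers (UMIs), in which SCTransform brings cells to a common depth. Cells labelled TGFβR-CA had a median of 3620.5 corrected UMIs, the larger TGFβR-WT set 3292 and the smaller 3878. A level below is the corrected UMIs of a gene per 10000 in a set of cells, without *Gm42418*, *AY036118* and *Lars2* in the total. Those 3 genes took 5.86% of the UMIs of TGFβR-CA cells, 0.443% of the larger set and 0.472% of the smaller set. Of the smaller set 5 cells were above 2%, as were 551 of the 556 TGFβR-CA cells. The sets also differed in sex-linked RNA. A UMI of *Xist* was present in 262 TGFβR-CA cells, in 0 of 327 of the larger set (which allows a share of up to 0.917%) and in 101 of the smaller set, and a Y-linked UMI in 132, 171 and 16 cells. In TGFβR-KO 0 of 519 TR-TFH cells held *Xist* (which allows up to 0.578%). No TR-TFH barcode was shared between the TGFβR-CA and TGFβR-WT sets. Over all clusters TGFβR-KO shared 14 barcodes with the larger set and 0 with the smaller, and TGFβR-CA shared 0 with either. Whether these values follow the batches was not tested. *Rflnb*, *Gpr183*, *Il7r* and *Itga4* served as markers of the TR-TFH cluster. *Rflnb*, a regulator of filamin, had levels of 4.81 in TGFβR-CA, 5.06 in the larger set and 5.45 in the smaller one, and of 1.49, 1.07 and 1.33 in the cells of all other clusters. *Itga4*, an integrin chain, separated the cluster less, at 3.57, 4.20 and 3.64 against 3.32, 3.98 and 2.13. Markers of other cells were low, with a summed level over 15 epithelial genes of 0.301, 0.0716 and 0.225, and over 13 B cell genes of 1.95, 2.27 and 1.32. The sums for 10 T cell genes were 140, 134 and 143.

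Few genes separated TGFβR-CA TR-TFH cells from both TGFβR-WT sets. Of 3094 genes with a mean level of at least 0.5, 25 (0.808%) were at least 1.5 times higher in TGFβR-CA than in each set and 44 (1.42%) at least 1.5 times lower, 69 (2.23%) in all. Of the higher genes 12 reached the lowest mean level only through TGFβR-CA, and of the lower genes 12 only through TGFβR-WT, so the filter favoured their call. With all genes in the total 12 genes were higher and 70 lower. Only 10 of the higher and 5 of the lower genes reached 2 times. A single ratio of at least 1.5 times set 604 genes (19.5%) apart between the TGFβR-WT sets themselves, 382 of them higher in the smaller set. This rule is looser than that of the calls, which need both sets, and is like that of the single-set counts that follow. Against the larger set alone TGFβR-CA was higher in 152 and lower in 135 genes, and against the smaller set alone in 172 and 289 genes. For 15 genes TGFβR-CA was past 1.5 times above the larger and below the smaller set, and for 11 genes the reverse, so the choice of control set turned their direction. Over all compared genes the median log2 ratio was 0.02 against the larger and −0.07 against the smaller set.

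**Figure D1:**
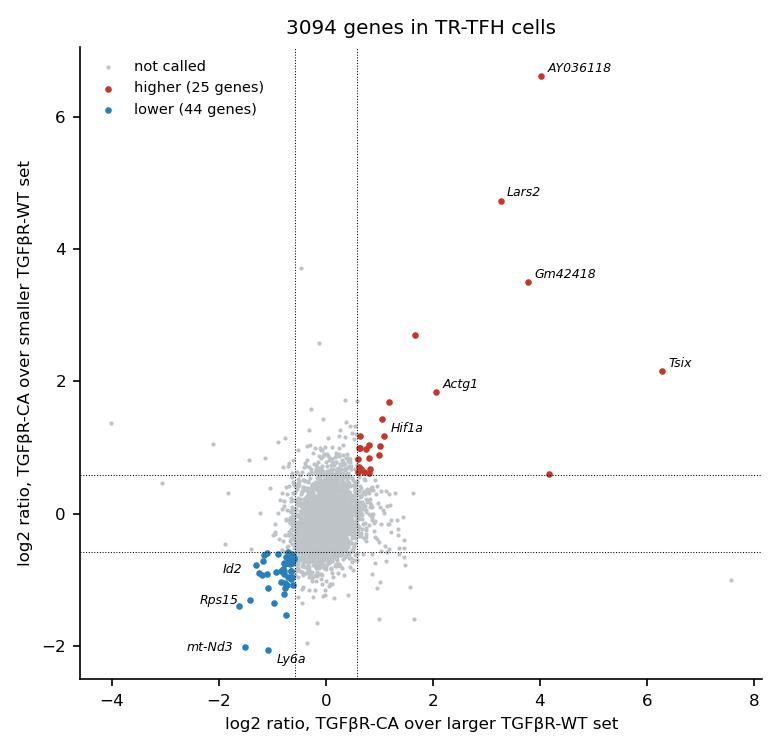
Each point is 1 of 3094 genes in TR-TFH cells, with the log2 ratio of its level in TGFβR-CA over the larger TGFβR-WT set (x axis) and over the smaller set (y axis). Dotted lines mark 1.5 times, the 25 genes higher against both sets lie in the upper right and the 44 lower genes in the lower left, and *Tsix*, at 0 in the larger set, is placed at the limit of 3 UMIs.

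*Tgfbr1* (chr4:47353222-47414931, GRCm38), whose active form TGFβR-CA mice express after recombination, did not separate TGFβR-CA from TGFβR-WT. Its level was 0.681 in TGFβR-CA (exact Poisson 95% interval 0.573 to 0.803), 0.340 in the larger set (0.241 to 0.467) and 2.05 in the smaller set (1.68 to 2.47). TGFβR-CA thus lay between the control sets, with no overlap of the intervals, at 2.0 times the larger set and 0.332 times the smaller. The order was alike in the cells of other clusters, at 0.999, 0.392 and 3.39. Whether reads of the active allele were counted as *Tgfbr1* is not given in the sources used here, so cells are called by their labelled genotype. *Tgfbr2*, the ligand-binding chain, stood at 1.90, 1.83 and 1.69, and *Smad4* at 0.700, 0.958 and 1.03. *Trim33*, a SMAD partner and ubiquitin ligase, stood at 0.661, 0.555 and 0.658. Intervals and limits at 0 cover counting error only, and corrected UMIs only approximate counts.

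Of 30 listed genes of the TGFβ response 26 were in the table and 11 passed the lowest mean level. Among these 11, 3 were above both TGFβR-WT sets, 3 below both and 5 mixed in direction. Called higher were 0 and called lower was 1, *Id2*, beside 0.808% and 1.42% over all compared genes. With 11 genes such counts cannot tell the list from other genes. The median log2 ratio of the 11 was 0.26 against the larger and −0.38 against the smaller set, beside 0.02 and −0.07 over all compared genes. *Smad7*, the inhibitory SMAD, had 0.544 in TGFβR-CA (0.448 to 0.655), 0.403 in the larger set (0.294 to 0.539) and 0.827 in the smaller set (0.601 to 1.11). *Skil*, which encodes the SMAD repressor SnoN, had 0.792, 0.662 and 1.03. *Ldlrad4*, an inhibitor of SMAD activation, had 0.919, 0.671 and 1.24. For these feedback inhibitors TGFβR-CA stood between the control sets, and its interval overlapped that of at least 1 of them. *Pmepa1*, another inhibitor, was 0.476 in TGFβR-CA, 0.501 in the larger set and 0.996 in the smaller set. *Smurf2*, a ubiquitin ligase that targets the receptor, came nearest to a call on the higher side at 0.914 (0.788 to 1.05) against 0.626 (0.488 to 0.791) and 0.658 (0.458 to 0.914), which is 1.39 times the nearer set. *Nt5e*, the ectonucleotidase CD73, had 2.59, 2.44 and 2.16, and the polarity gene *Pard6g* 1.54, 1.65 and 1.43. All 3 sets were within 1.5 times of each other for both.

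The same genes could be set beside TR-TFH cells labelled TGFβR-KO (519 cells, with *Tgfbr2* deleted), which share the TGFβR-WT cells as controls. There *Smad7* was 0.177 (0.123 to 0.248), *Skil* 0.209, *Ldlrad4* 0.214, *Pmepa1* 0.146, *Smurf2* 0.308, *Nt5e* 0.621 (0.514 to 0.743) and *Pard6g* 0.360. Each of these 7 levels was below that of all 3 other sets. Of the remaining compared response genes, *Ski* at 0.856 was also below all, and *Tgfb1* at 0.793 barely so, with 0.796 in the larger set. *Nedd9* at 0.532 was above the larger set at 0.492. The share of all compared genes with TGFβR-KO lowest was not counted. *Id2* was 5.67 in TGFβR-KO, against 2.27 in TGFβR-CA.

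**Figure D2:**
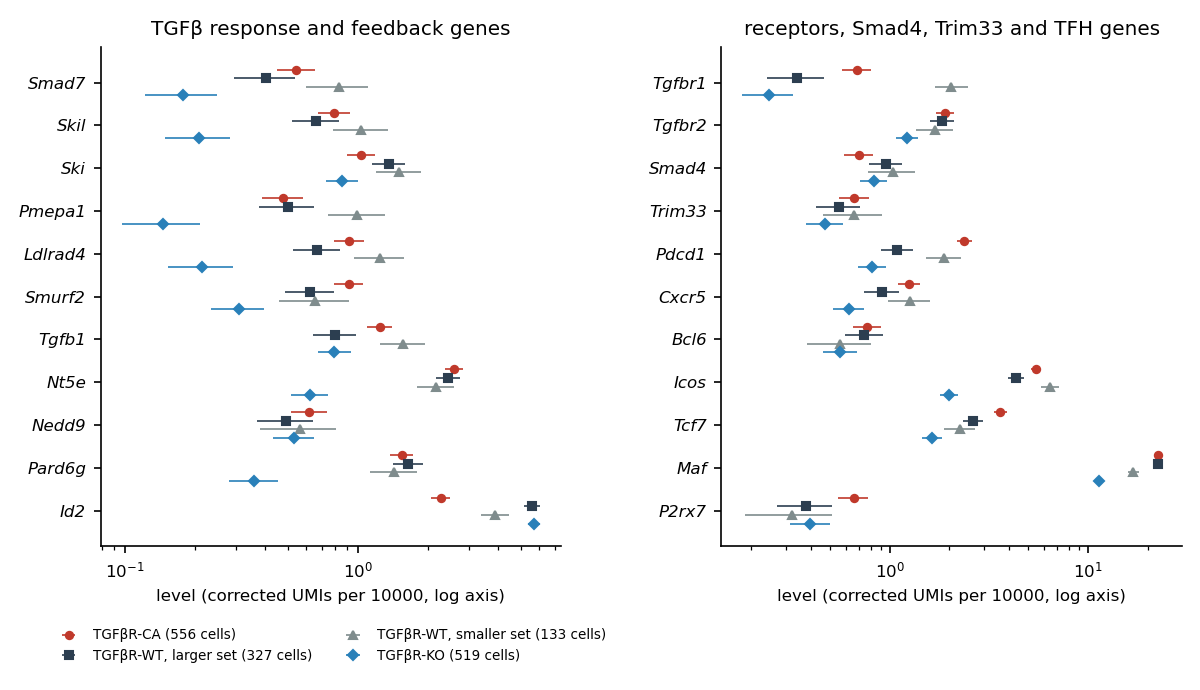
Levels in TR-TFH cells (corrected UMIs per 10000, log axis) of the 11 compared TGFβ response genes (left) and of receptors, *Smad4*, *Trim33* and TFH genes (right). Points are the summed level of each set, with exact Poisson 95% intervals that cover counting error only. TGFβR-CA lies between the TGFβR-WT sets for 5 of the 11 response genes, above both for 3 and below both for 3. Those below are *Id2* at 2.27, *Ski* at 1.03 and *Pmepa1* at 0.476. *Smad7*, *Skil* and *Pmepa1* are lowest in TGFβR-KO.

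Of the TFH program 24 of 34 listed genes were compared, of which 0 were called lower, beside 1.42% over all compared genes. The 1 gene called higher, *P2rx7*, reached the lowest mean level only through TGFβR-CA and is given as values alone. *P2rx7*, an ATP-gated ion channel, stood at 0.656 in TGFβR-CA (0.550 to 0.777), 0.376 in the larger set (0.271 to 0.508) and 0.319 in the smaller set (0.186 to 0.511), and thus above both. The median log2 ratio of the 24 genes was 0.07 against the larger and 0.16 against the smaller set. *Tcf7*, which encodes the transcription factor TCF1, was 3.62 in TGFβR-CA against 2.62 and 2.25, or 1.38 times the nearer set. *Pdcd1*, encoding PD-1, was 2.38 (2.18 to 2.60) against 1.09 (0.907 to 1.30) in the larger and 1.88 (1.53 to 2.28) in the smaller set, so that its interval overlapped that of the smaller set. *Bcl6* had 0.768, 0.743 and 0.564. *Cxcr5*, the receptor for the follicular chemokine CXCL13, had 1.25, 0.913 and 1.26. *Icos* had 5.47, 4.35 and 6.46, and *Maf*, which supports IL-21 and IL-10, had 22.6, 22.5 and 16.9. None of these last 4 genes was past 1.5 times either TGFβR-WT set.

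Among the called genes outside the 3 named RNAs and sex-linked genes, *Actg1* (γ-actin, chr11:120345690-120348542) had the largest ratio on the higher side. Its level was 2.69 in TGFβR-CA (2.47 to 2.93), 0.644 in the larger set (0.504 to 0.811) and 0.751 in the smaller set (0.537 to 1.02), which is 3.58 times the nearer set. *Capza1*, a capping protein of actin filaments, was 1.57 against 0.788 and 0.845. For *Actg1* the intervals of TGFβR-CA and of either TGFβR-WT set did not overlap, which adds no support, since it was called from these same levels. Of 48 compared actin genes these 2 were called higher and *Evl*, an Ena/VASP actin regulator, was called lower at 1.5 against 2.33 and 2.37. Over all compared genes 0.808% were called higher and 1.42% lower. Actins share long stretches of sequence, so reads of *Actg1* could be split with its paralogs.

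*Il2rg*, the common γ chain of the receptors for IL-2, IL-7 and IL-21, was called higher, but reached the lowest mean level only through TGFβR-CA, and nothing is read from its list of 11 compared cytokine receptor genes. It stood at 0.729 in TGFβR-CA (0.617 to 0.856), 0.322 in the larger set (0.226 to 0.446) and 0.225 in the smaller set (0.116 to 0.394), or 2.26 times the nearer set. *S100a6*, a small calcium-binding protein, stood at 1.97 (1.78 to 2.17), 0.949 (0.777 to 1.15) and 0.733 (0.521 to 1.0), or 2.08 times. Both genes were low in each set, and the 28 TGFβR-CA cells with most *S100a6* UMIs (5% of cells) held 45.4% of them. Without the top 5% of each set *S100a6* was 1.14, 0.389 and 0.358. Others among the 12 genes with the largest ratios were *Hist1h4d* (3.18 times the nearer set), *Hif1a* (2.13), *Fam160b2* (2.02), *P2rx7* (1.75), *Khdrbs1* (1.67), *Zcchc9* (1.6) and *Cux1* (1.57). Of these, *Hist1h4d*, *Hif1a*, *Fam160b2*, *P2rx7* and *Cux1* reached the lowest mean level only through TGFβR-CA. *Hist1h4d* is 1 of many near-identical histone H4 genes, and its level of 1.59 against 0.501 and 0.244 is uncertain for that reason. *Khdrbs1* encodes the RNA-binding protein SAM68, with 1.18, 0.707 and 0.601. The RNA helicase gene *Dhx9* stood at 1.40, 0.904 and 0.620.

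**Figure D3:**
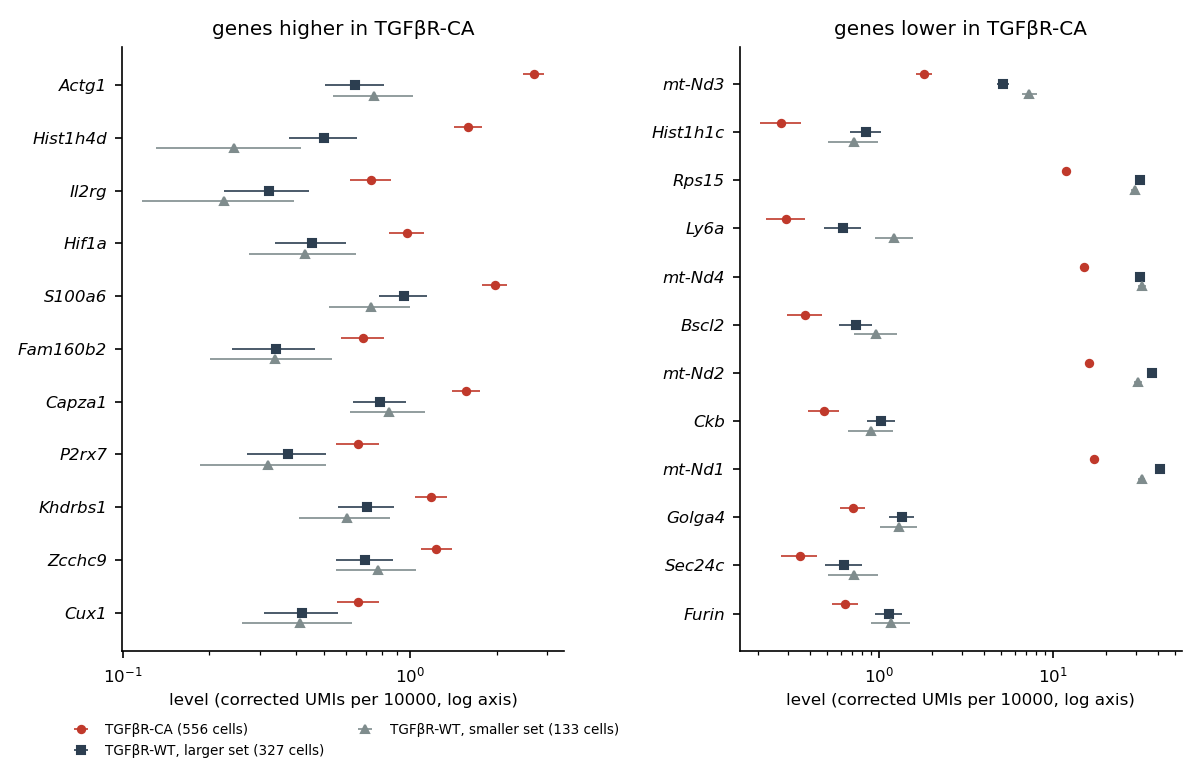
Levels in TR-TFH cells (corrected UMIs per 10000, log axis) of 11 of the 12 genes with the largest ratio on the higher side (left) and of the 12 on the lower side (right), ordered by the ratio to the nearer TGFβR-WT set. Points are summed levels of each set and lines exact Poisson 95% intervals for counting error. *Actg1* stands at 2.69 in TGFβR-CA against 0.644 and 0.751, and *mt-Nd3* at 1.80 against 5.16 and 7.29.

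The 3 RNAs left out of the total had the largest ratios to the nearer set on the higher side. *Gm42418* had a level of 521 in TGFβR-CA, 37.9 in the larger set and 46.2 in the smaller one. *AY036118* had 92.4, 5.66 and 0.939, and *Lars2*, the mitochondrial leucyl-tRNA synthetase, 9.49, 0.984 and 0.357. All were about as far apart in the other clusters, where *Gm42418* was at 505, 34.4 and 41.7. *Gm42418* (chr17:39846958-39848788) and *AY036118* (chr17:39847113-39848035) overlap on opposite strands, so their reads may not be told apart. *Tsix*, antisense to *Xist*, was 2.09, 0 and 0.470, while *Xist* was 5.11, 0 and 10.2.

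On the lower side the gene furthest from both sets was *mt-Nd3*, 1 of the mitochondrially encoded subunits of complex I. Its level was 1.80 in TGFβR-CA (1.62 to 2.0), 5.16 in the larger set (4.75 to 5.60) and 7.29 in the smaller set (6.58 to 8.05), so that TGFβR-CA was lower by 2.86 times. *mt-Nd4* was 14.9, 31.6 and 32.4, *mt-Nd2* 16.1, 36.8 and 30.7, and *mt-Nd1* 17.3, 40.9 and 32.3. These 4 of 6 compared mitochondrially encoded genes were called lower, with TGFβR-CA below both sets each time. *mt-Co1* of complex IV (15.8, 17.2 and 13.7) and *mt-Nd5* of complex I (8.64, 8.0 and 7.66) were within 1.5 times of both. Of 76 compared nuclear genes of the respiratory chain 0 were called in either direction, where 2.23% of all compared genes were. The 11 mitochondrially encoded genes in the table took 0.749% of the UMIs in TGFβR-CA, 1.40% in the larger set and 1.25% in the smaller one. This share rests on few genes. Among those under the lowest mean level, *mt-Co2* stood at 0.0583, 0.0895 and 0.451 and *mt-Co3* at 0.117, 0.0447 and 0.733. The 4 genes called lower were below both TGFβR-WT sets by at least 1.5 times in the other clusters. Their relation to the 3 library-wide RNAs, which differ between the same cells, was not tested.

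*Rps15*, a protein of the small ribosomal subunit, stood at 11.9 in TGFβR-CA (11.4 to 12.3), 31.7 in the larger set (30.7 to 32.8) and 29.4 in the smaller set (27.9 to 30.9), lower by 2.47 times. *Rpl23a*, of the large subunit, stood at 10.5, 18.1 and 19.0. These were 2 of 81 compared ribosomal protein genes, whose median log2 ratio was 0.06 against the larger and 0.20 against the smaller set. Over all compared genes 1.42% were called lower. Ribosomal protein genes have many processed pseudogenes, so reads could be split between copies.

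*Ly6a*, which encodes the surface protein Sca-1 and is induced by interferons, was 0.292 in TGFβR-CA (0.223 to 0.375), 0.617 in the larger set (0.480 to 0.781) and 1.22 in the smaller set (0.942 to 1.56). It was 4.84 in TGFβR-KO, so TGFβR-CA had the lowest level of the 4 sets. Few cells carried it, and 93.3% of its UMIs in TGFβR-CA were in the 28 cells with most. It passed the filter only through TGFβR-WT, and 0 of the other 22 compared genes of the interferon response and class I antigen presentation were called. Over all compared genes 2.23% were called, so this 0 is not read as a result. The other genes among the 12 furthest down were *Hist1h1c* (2.62 times below the nearer set), *Bscl2* (1.96), *Ckb* (1.87), *Golga4* (1.84), *Sec24c* (1.79) and *Furin* (1.78). Of these, *Hist1h1c*, *Bscl2*, *Ckb* and *Sec24c* also passed the filter only through TGFβR-WT. *Furin* encodes a proprotein convertase that processes TGFβ itself, and stood at 0.637, 1.14 and 1.16. *Golga4* and *Sec24c* act in Golgi transport and in COPII vesicles, at 0.705, 1.35 and 1.30 and at 0.350, 0.626 and 0.714.

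Transcription factors and chromatin regulators of T cell lineages held 4 called genes among 30 compared, of 48 listed, beside 2.23% called over all compared genes. *Hif1a* among the 4 passed the filter only through TGFβR-CA. *Id2*, an inhibitor of E proteins that opposes the TFH fate, was 2.27 in TGFβR-CA (2.06 to 2.48), 5.59 in the larger set (5.16 to 6.05) and 3.87 in the smaller set (3.36 to 4.44), and lower by 1.71 times than the nearer set. *Satb1*, a chromatin organizer of T cells, was 1.06 (0.924 to 1.21), 2.41 (2.13 to 2.71) and 1.75 (1.41 to 2.14), lower by 1.65 times. *Kdm6b*, a histone H3 lysine demethylase, was 0.792 (0.675 to 0.924), 1.25 (1.05 to 1.48) and 1.45 (1.14 to 1.81). For all 3 genes the TGFβR-CA interval lay under both control intervals. They were called from these same levels, so this adds no support to the calls. *Hif1a*, the oxygen-sensitive factor, was higher at 0.972 (0.842 to 1.12) against 0.456 (0.340 to 0.60) and 0.432 (0.274 to 0.648). *Hif1a* was 0.339 in TGFβR-KO, *Satb1* 2.69 and *Kdm6b* 0.579.

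*Id2* and *Hif1a* are shown with the 250 bases before their RefSeq start sites (GRCm38.p6), as the lineage regulators with the largest ratio on the lower and on the higher side. Both strands were searched for the SMAD-binding letters CAGAC, which read GTCTG on the other strand, and matches are in capitals. The *Id2* window is chr12:25096093-25096342 on the minus strand and the *Hif1a* window chr12:73907617-73907866 on the plus strand.
Id2: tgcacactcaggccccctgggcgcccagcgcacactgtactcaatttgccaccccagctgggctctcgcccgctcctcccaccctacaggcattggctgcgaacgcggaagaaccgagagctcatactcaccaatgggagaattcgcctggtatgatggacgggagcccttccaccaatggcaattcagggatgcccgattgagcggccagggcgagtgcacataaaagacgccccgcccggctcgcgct
Hif1a: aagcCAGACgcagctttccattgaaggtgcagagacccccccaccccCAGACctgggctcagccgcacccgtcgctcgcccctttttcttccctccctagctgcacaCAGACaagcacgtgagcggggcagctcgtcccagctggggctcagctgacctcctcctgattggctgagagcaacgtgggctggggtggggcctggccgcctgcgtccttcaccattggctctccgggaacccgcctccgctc
*Hif1a* held 3 matches, beginning 246, 203 and 143 bases before the start, and *Id2* held 0. Such short letters are common, being in 42.2% of 32851 promoters of this length in the table and in 38.2% of those of the compared genes. They were in 8 of 16 promoters found for genes called higher and in 20 of 39 found for genes called lower. A match is a description of these letters and not a site of binding.

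Immediate early and stress response genes gave 1 call among 20 compared, beside 2.23% called over all compared genes. *Klf6*, a zinc finger factor, was 1.18 in TGFβR-CA against 1.83 and 1.84. Without reaching 1.5 times against both, *Fos* was 0.997 against 3.69 and 1.37, *Dusp1* 0.506 against 1.33 and 0.733, and *Zfp36* 1.07 against 1.91 and 1.58. In all, 12 of the 20 genes were under both sets and 2 above both, where 959 of all 3094 compared genes were under and 813 above both. The list had medians of −0.34 and −0.23 on the log2 scale. The larger set was the highest of the 3 for *Fos*, *Dusp1* and *Zfp36*.

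Genes of naive and memory cells and of tissue egress held 1 call among 12 compared, which was *Satb1*. *Il7r*, the IL-7 receptor chain, was 4.78, 7.48 and 5.90, and *Gpr183*, a receptor for oxysterols, was 5.64, 8.56 and 4.55. Residency and gut homing genes held no call among 10 compared besides *P2rx7* and *Ly6a*. *Smco4* in that list was 7.73, 4.98 and 5.80, under 1.5 times the smaller set. There were 0 calls among 8 compared TH17 identity genes, 4 TH1 and cytotoxic genes, 4 regulatory T cell genes, 7 inhibitory receptors, 35 T cell receptor signaling genes, 22 heat shock chaperones, 8 NF-κB genes, 11 survival genes, 9 glycolysis genes and 32 proteasome genes. The lists of this paragraph are short for the 2.23% called over all compared genes, so nothing is read from these counts. *Hspa8*, a chaperone, shows how the control sets part, at 9.39 in TGFβR-CA, 3.42 in the larger set and 12.4 in the smaller one. TGFβR-CA and the smaller set were both at least 2 times above the larger set and TGFβR-KO in 26 genes, and TGFβR-CA and the larger set above the other pair in 1.

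**Figure D4:**
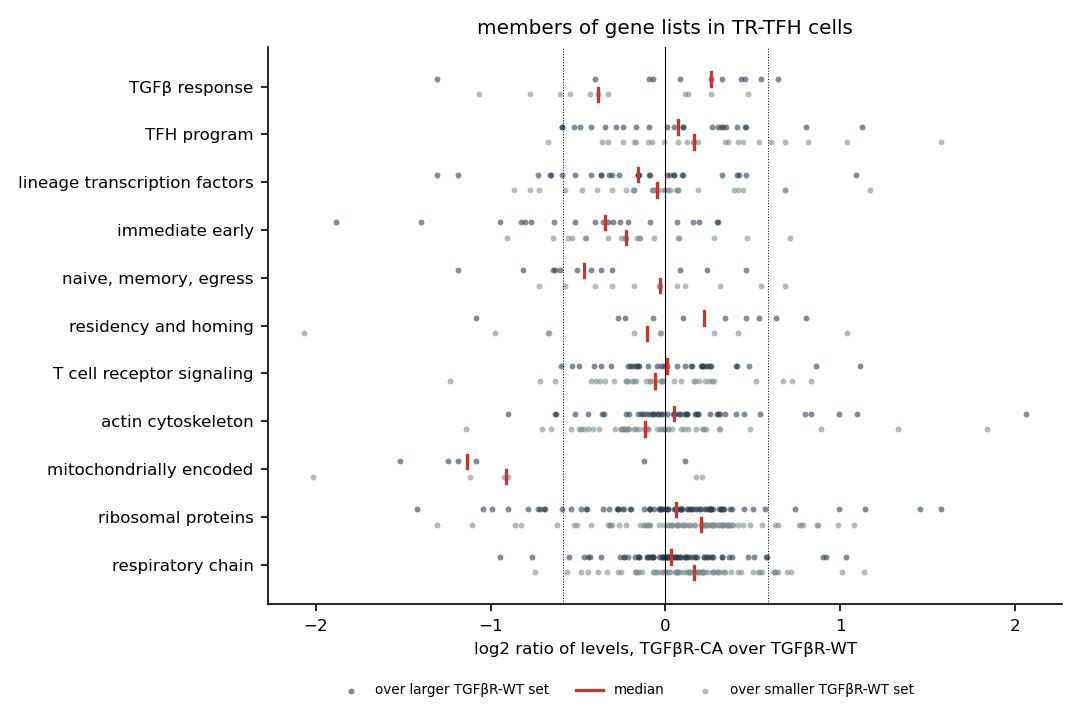
Log2 ratios of levels in TR-TFH cells for the compared members of 11 gene lists, TGFβR-CA over the larger (dark) and the smaller (light) TGFβR-WT set. Red bars are medians and dotted lines mark 1.5 times. The mitochondrially encoded genes have medians of −1.13 and −0.91, and the other medians lie between −0.47 and 0.26.

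Many called genes differed alike in the rest of the same libraries. In the 542 TGFβR-CA and 547 TGFβR-WT cells of all other clusters, 13 of the 25 higher genes and 13 of the 44 lower genes were again at least 1.5 times apart from both sets, where 48 and 30 of the 3094 genes were. *Actg1* was 2.81 there against 1.06 and 1.05, *Hif1a* 1.84 against 0.979 and 0.622, and *Rps15* 10.5 against 25.8 and 24.0. The direction was alike against both sets for 23 of 25 and 34 of 44 genes and opposite for 0 and 2. The like share over all compared genes was not counted, so nothing is read from this. Among the 25 higher genes were *Gm42418*, *AY036118*, *Lars2* and *Tsix*. *S100a6* was among the called genes not alike in direction, at 4.32 in other TGFβR-CA cells against 4.87 and 3.02. That value pools clusters that differ. In germinal center TFH cells alone *S100a6* was above both sets, at 3.09 against 1.39 and 1.33, and in activated cells it was 3.92 against 4.84 and 3.19. *Bscl2* was also not alike in direction over the pooled clusters, at 0.642 against 0.588 and 0.651. *Id2* kept its direction at 4.17 against 7.61 and 6.17. Since all clusters come from the same libraries, they are no replicates of the comparison.

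**Figure D5:**
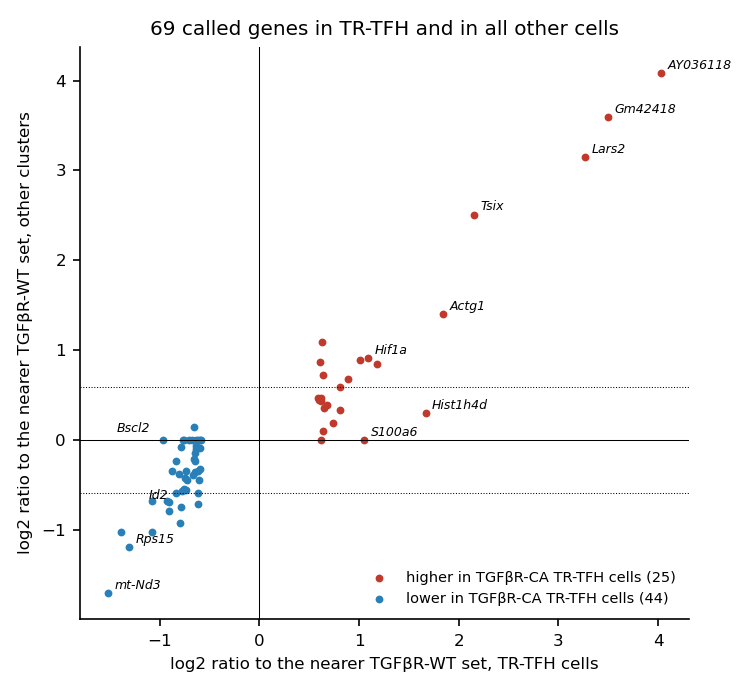
For the 69 called genes, the log2 ratio of TGFβR-CA to the nearer TGFβR-WT set in TR-TFH cells (x axis) and in all other clusters (y axis, 0 where the sets disagree in direction). Dotted lines mark 1.5 times, and *S100a6* and *Bscl2* lie at 0 on the y axis. The y axis pools clusters, and in germinal center TFH cells alone *S100a6* was above both sets, at 3.09 against 1.39 and 1.33.

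Called genes were also compared within cells of like sex-linked RNA, an alternative chosen after the data were seen. TGFβR-CA cells with a Y-linked and no *Xist* UMI (131) were set against the larger set (171 such cells), and those with *Xist* and no Y-linked UMI (261) against the smaller set (100 cells). Over all 3094 compared genes 32 were higher and 55 lower by at least 1.5 times in this way. Of the 25 higher genes 15 were called again and 24 had the same direction against both, and of the 44 lower genes 26 and 44. These cells are part of those that gave the calls, so such agreement was favoured in advance and is no separate support. *Actg1*, *Il2rg*, *Hif1a*, *S100a6*, *P2rx7*, *Id2*, *Satb1* and *Rps15* were among those called again. *Cux1*, *Ly6a*, *Bscl2* and *Furin* were among those not called again, and stood at 0.15, −0.25, −0.50 and −0.45 on the log2 scale against the nearer set. Without the 5 cells of the smaller set that had over 2% of the 3 RNAs, 23 genes were higher and 43 lower.

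TR-TFH cells made up 50.6% of TGFβR-CA cells (exact Clopper-Pearson 95% interval 47.6% to 53.6%), 46.1% of the larger set (42.4% to 49.9%) and 44.6% of the smaller set (38.9% to 50.5%). The interval of TGFβR-CA overlapped those of both sets. These are shares of the sorted cells, in which more cells of 1 cluster and fewer of another cannot be told apart.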

How the data were processed

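Single-cell RNA reads of sorted cells were aligned by the authors with Cell Ranger 3.1.0 to mm10. Its output was passed through velocyto, and the resulting loom files were read into R. The authors kept cells by detected genes and mitochondrial share and normalized with SCTransform in Seurat. They then integrated and clustered the conditions and took out γδ T and epithelial cells. How doublets were treated is not given in the sources used here, and no caller was run, since the deposited values are not raw counts. Each deposited value is a natural log, taken by the authors of the corrected UMI number plus 1, and undoing it gave whole numbers within 3.64e-12. A count test had no raw counts to use. Cells named R: were taken as TGFβR-KO, from the title of that sample.

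Levels were summed per set of cells per 10000 UMIs with Python 3.11.15, numpy 2.4.6, scipy 1.17.1 and pandas 2.3.3, and figures drawn with matplotlib 3.10.9. A gene was called where its ratio reached 1.5 against both TGFβR-WT sets in the same direction, with 3 UMIs in place of 0. The text names the 12 called genes with the largest ratio to the nearer set on each side, without *Gm42418*, *AY036118*, *Lars2* and sex-linked genes, which are given apart. It also names up to 4 genes of a list, *Tgfbr1* and *Tgfbr2*, cell type markers and genes the study names for TFH clusters. *Dhx9*, *Hspa8* and *Usp3* were chosen after their values were seen. Not every gene of this rule is reported here. The cells and the gene lists were chosen with earlier results of these data known. The steps were tested on simulated data. Gene positions come from GENCODE M21 (GRCm38, the assembly also called mm10), and promoters from RefSeq, which held 15 of the 25 higher and 28 of the 44 lower genes.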

Additional observations from a re-analysis of the deposited data

Results flagged for a closer look

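*Kdm6b* and *Usp3* were singled out because TGFβR-CA lay under both TGFβR-WT sets in TR-TFH cells and above both, though for *Usp3* by almost nothing, in the cells of all other clusters. For *Kdm6b* the log2 ratio to the nearer set was −0.66 in TR-TFH cells and 0.14 in the others, with levels there of 1.93 in TGFβR-CA against 1.75 and 1.52. For *Usp3*, a ubiquitin-specific protease, it was −0.71 and 0.00, with levels of 0.651, 1.06 and 1.26 in TR-TFH cells and of 0.675, 0.675 and 0.548 in the others. These differences between clusters were not tested.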

How the results depend on the processing

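Counts of called genes moved with the threshold and the scale. With a lowest mean level of 0.25 there were 63 higher and 92 lower genes, and with 1 there were 10 and 22. With all genes in the total there were 12 and 70, and with 0.1 added to each level 16 and 29. With mitochondrial and ribosomal protein genes also left out of the total there were 42 and 57. Against the larger set alone there were 152 and 135, against the smaller set alone 172 and 289, and against pooled TGFβR-WT cells 70 and 94. Under the mean of each cell's level, the median gene as zero, cells without shared barcodes, cells up to 5% mitochondrial UMIs, cells matched by sex-linked RNA, and the smaller set without its 5 cells above 2%, both counts stayed within 1.5 times. The last 2 were added after the data were seen. None of the called genes checked here reversed under any of these, which against a single set follows from the rule of a call. Uncalled genes did not always keep their direction, and *Tgfbr1* was above the larger set alone and below the smaller set alone. With all genes in the total 5 checked called genes fell under 1.5 times, among them *Cux1* and *Dhx9* (0.57 and 0.56 on the log2 scale). With 0.1 added 4 did, again with *Cux1* and *Dhx9*, and with the median gene as zero 2 did, with *Klf6* (−0.57). In cells matched by sex-linked RNA 12 did. Under the mean of each cell's level 1 did, as did 1 without mitochondrial and ribosomal protein genes in the total and 1 without the 5 cells above 2%. The share of TR-TFH cells stayed within its interval without shared barcodes, without the cycling cluster and, for TGFβR-WT, in each set. No paired analysis was possible because there was 1 TGFβR-CA sample and TGFβR-WT cells carry no replicate number. With 1 TGFβR-CA sample and TGFβR-WT cells not tied to their 2 samples, spread between samples was not measured, and leaving out a replicate was not possible. Corrected UMIs carry no original depth, and genes with few UMIs, such as *Il2rg* with 12 in the smaller set, are known with least precision.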
